A study of Mus musculus with 29 samples.

Results

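Mice whose colitis had been left alone after 2 cycles of dextran sulfate sodium (DSS) were compared with mice given another cycle in the same interval. The members are the arrays labelled as 2 cycles of DSS with additional recovery (recovery; mice M1, M3, M5, N2 and N3) and as 3 cycles of DSS (3 cycles; mice F1, F3, F5, G2 and G3), 10 of the 29 arrays of the series. The label alone chose them, and no expression value was used. DSS in the drinking water injures the colonic epithelium, and a cycle was 7 days of DSS followed by 2 weeks of normal water, with more DSS in the later cycles than in the first. Recovery mice had 2 cycles and then 3 more weeks of normal water, and 3-cycles mice had a further full cycle in place of those weeks, so that the time since the start was the same and the time since the last DSS was not. All were female mice labelled as C57BL6J and as 6 weeks old, which is their age before the first DSS and not at sampling, and all had received the first 2 cycles. The RNA came from a frozen piece of the distal colon of each mouse, taken where infiltration was strongest, so that each array measures the mixture of cells in that piece. The other arrays of the series are 5 mice after 2 cycles, 5 after 1 cycle, 4 with acute colitis and 5 controls that had no DSS.

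The normal colon is lined by a simple columnar epithelium of absorptive and goblet cells, which express keratins such as Krt8 and Krt20. Stratified squamous epithelium, as in skin, oesophagus and the anal canal, instead has a basal layer with Krt5 and Krt14 under the control of the transcription factor Trp63, upper layers with Krt4 and Krt13 or Krt1 and Krt10, and a cornified envelope of small proline-rich proteins crosslinked by transglutaminases. DSS colitis itself brings interferon, antimicrobial and plasma cell programmes, and repair of the lining draws on proliferation of crypt cells. These programmes were followed here in 44 gene lists, beside all genes on the array.

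The values are log2 expression values made by the authors with RMA, on which a difference of 1 is a 2-fold difference. Values of single mice are given in the order M1, M3, M5, N2 and N3, and F1, F3, F5, G2 and G3. The 10 arrays had medians of 6.064 to 6.141 and correlated at 0.978 to 0.989 across probe sets. The markers of the labelled tissue were present in all 10, with Muc2 at 13.09 to 13.42 in recovery mice, against 13.15 to 13.41 in 3-cycles mice, and Cdx1 at 8.70 to 8.98 against 8.72 to 8.94. A probe set called ATP6, for which the annotation lists no gene, divides the series into a high and a low set of arrays, and both groups compared here lie wholly in the high set, at 11.28 to 11.46 after recovery and 11.31 to 11.88 after 3 cycles. All 5 controls lie in the low set, and of the mice after 2 cycles 3 lie in the high and 2 in the low set, so that any difference from controls given below cannot be told apart from the array set. The letters of the labels differ between the groups (M and N against F and G), and what they stand for is not given in the sources used here, so that letter and group cannot be told apart.

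Of the 35511 probe sets, 0 were called higher or lower after recovery than after 3 cycles (0% of those tested) at an adjusted p under 0.05 with a difference over 2-fold, by limma with 1 mean per group over all 29 arrays. The smallest adjusted p was 0.0593, shared by 5 probe sets, among them those of Krt4, Sprr3, Ly6g6c and Elovl4. At an adjusted p under 0.10 there were 31, of which 26 were higher after recovery. The count depended on single mice. It also depended on the error model, with 24 probe sets called higher and 1 lower with the label letter as a random block, whose estimated correlation of -0.0683 makes the errors of a difference between letters smaller. Without recovery mouse M5 there were 76 probe sets called higher and 3 lower, without 3-cycles mouse G3 36 and 1, without recovery mouse N2 28 and 1, and without 3-cycles mouse F1 1 and 0. Among only the 21789 probe sets with 1 gene symbol, 18 were called higher, 14 of them of the squamous lists described below.

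At an unadjusted p under 0.05, 998 probe sets were higher after recovery (2.81%) and 1554 lower (4.38%). That split depended on the scaling of the arrays, being 1367 higher and 1159 lower after quantile normalization once more, and 1155 higher and 1279 lower with each array centred on its median. Over 2-fold, 71 were higher (0.2%) and 9 lower (0.0253%). The 5 recovery mice lay all above the 5 3-cycles mice in 164 probe sets (0.462%) and all below them in 337 (0.949%), and of the 337, 145 have no gene listed. For 34642 probe sets, 97.6%, the 95% interval of the difference lay within 2-fold either way. Counted as genes with 1 symbol, 65 were over 2-fold higher and 2 lower.

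Of these 65 genes, 47 belong to the 5 lists of stratified squamous epithelium (keratins, transcription factors, cornified envelope, adhesion, and proteases with serpins), of which 118 genes were measured. At an unadjusted p under 0.05, 77 of the 118 (65.3%) were higher after recovery and 0 lower, beside 3.32% and 3.36% of all 19938 genes. The lists were chosen with earlier results of these data known and hold keratins that the study names for additional recovery. These shares are therefore a description and not a test. The SE, interval and p of each gene rest on 1 spread estimate shared by all groups of the series. Squamous keratin means ran from 5.38 to 8.23 in recovery mice. They ran only from 5.42 to 5.52 after 2 cycles and 5.29 to 5.45 in controls. For squamous genes the shared estimate can thus understate the errors of the comparison. With the 10 arrays alone, the smallest adjusted p by limma over all probe sets was 0.381. The squamous genes divided the mice within each group. In most of those named below, recovery mice M1, M3, N2 and N3 were high, N2 the lowest of them, and M5 was near the level of controls, while G3 was the 3-cycles mouse that was high. M5 was the lowest recovery mouse for 89 of the 118 genes (75.4%, and 22.8% of all genes), and G3 the highest 3-cycles mouse for 78 (66.1%, and 26.9% of all genes).

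**Figure D1:**
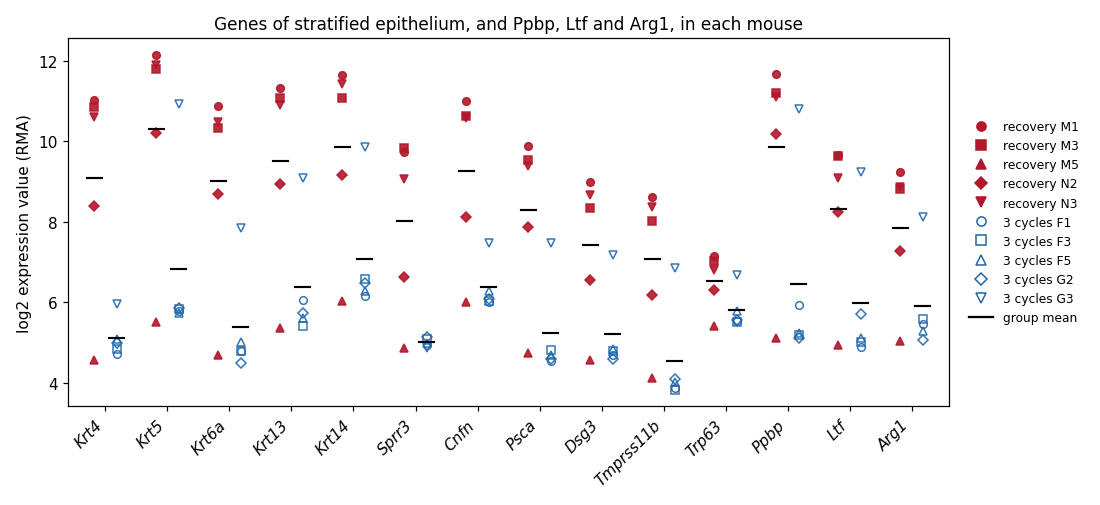
Log2 expression value (y axis) of 14 genes (x axis) in each mouse, with recovery as filled red symbols left of 3 cycles as open blue symbols, 1 symbol per mouse, and black lines for the group means. Recovery mouse M5 lies with most 3-cycles mice for each gene shown, and 3-cycles mouse G3 lies above the other 3-cycles mice for each gene shown other than Sprr3.

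Krt4 and Krt13 belong to the upper layers of mucosal squamous epithelium, and Krt4 had the largest difference of all 19938 genes. Krt4 had log2 values of 11.02, 10.84, 4.58, 8.40 and 10.61 in recovery mice, against 4.72, 4.83, 5.08, 4.998 and 5.95 in 3-cycles mice. Recovery mice M1, M3, N2 and N3 lay above every 3-cycles mouse, and M5 below every one. The difference was 3.97 (SE 0.69, 95% interval 2.56 to 5.39, 15.7-fold), at an adjusted p of 0.0593. Krt13, its partner in the same cells, had 11.33, 11.07, 5.35, 8.94 and 10.90 in recovery mice, against 6.05, 5.41, 5.60, 5.75 and 9.08 in 3-cycles mice, with G3 above N2 and M5. The difference for Krt13 was 3.14 (SE 0.73, adjusted p = 0.163).

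Krt5 and Krt14 are the pair of the basal layer. Krt5 had log2 values of 12.15, 11.80, 5.52, 10.19 and 11.90 in recovery mice, against 5.78, 5.83, 5.75, 5.85 and 10.91 in 3-cycles mice, so that G3 was above N2 and within the range of the recovery mice. Krt14 had 11.64, 11.07, 6.03, 9.17 and 11.42 in recovery mice, against 6.15, 6.58, 6.28, 6.47 and 9.85 in 3-cycles mice, with the same order among the high mice. Their differences were 3.49 (SE 0.90, 95% interval 1.65 to 5.33, adjusted p = 0.232) and 2.80 (SE 0.71, adjusted p = 0.218). Krt5 passed the test only without G3, at a difference of 4.51 and an adjusted p of 0.0143 by limma, or without M5, at 4.69 and 0.000233. G3 and M5 are the mice whose Krt5 values ran against the group difference. Leaving either out is bound to widen the difference, so that these passes are no support for it.

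Keratins of wound-edge and stressed epidermis followed the same mice. Krt6a had 10.88, 10.32, 4.70, 8.70 and 10.48 in recovery mice, against 4.80, 4.79, 5.01, 4.50 and 7.85 in 3-cycles mice, a difference of 3.63 (SE 0.73, adjusted p = 0.0736). Krt6b differed by 3.39 (SE 0.70, adjusted p = 0.0792), Krt17 by 1.28 (SE 0.35) and Krt16 by 1.01 (SE 0.29). Krt16, with values of 5.08 to 7.15 in recovery mice against 4.75 to 5.57 in 3-cycles mice, was low in N2 as well as in M5. In the whole list of 18 keratins, 17 had a mean above that of 3-cycles mice, 9 were over 2-fold higher and 11 had an unadjusted p under 0.05, with a median difference of 0.95, beside -0.01 over all genes. Krt84, a keratin of hard structures such as the tongue, differed by 0.21 (SE 0.28), with 5.61 to 6.69 in recovery mice against 5.56 to 6.37 in 3-cycles mice. The 13 genes of skin appendages and pigment cells had a median of -0.03, with 0 higher and 1 lower at an unadjusted p under 0.05.

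The cornified envelope list had 17 of 36 genes over 2-fold higher, 23 at an unadjusted p under 0.05 and a median of 0.90. Sprr3, a small proline-rich protein of the envelope of mucosal epithelium, had 9.73, 9.82, 4.86, 6.64 and 9.07 in recovery mice, against 4.93, 5.09, 4.99, 5.15 and 4.85 in 3-cycles mice. Here G3 was the lowest 3-cycles mouse, and N2 lay between M5 and the other recovery mice. The difference was 3.02 (SE 0.55, 95% interval 1.90 to 4.15, adjusted p = 0.0593). Cnfn, which encodes cornifelin, a component of the envelope, had 10.99, 10.62, 6.02, 8.11 and 10.59 in recovery mice, against 6.002, 6.02, 6.29, 6.10 and 7.47 in 3-cycles mice, a difference of 2.89 (SE 0.56, adjusted p = 0.0736), with G3 above the other 3-cycles mice and below N2. G3 thus had Krt5 within the range of recovery mice and Sprr3 at the level of the other 3-cycles mice. The envelope list was not uniform in this. Sprr2d and Tgm1 were high in G3, at 8.90 and 8.64, beside at most 6.46 and 6.49 in the other 3-cycles mice. G3 was the highest 3-cycles mouse for 20 of the 36 genes of the list (55.6%), beside 26.9% of all genes.

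The epithelial serine proteases and the serpins that inhibit such enzymes had 13 of 27 genes over 2-fold higher and 22 at an unadjusted p under 0.05, with a median of 0.94. Tmprss11b and Tmprss11g, membrane-anchored proteases of mucosal squamous epithelium, differed by 2.53 (SE 0.57) and 2.34 (SE 0.67). Tmprss11g had 8.95, 8.54, 4.26, 6.66 and 8.97 in recovery mice, against 4.49, 4.40, 4.29, 4.21 and 8.27 in 3-cycles mice, and G3 was above N2. Serpinb3a, a protease inhibitor of the squamous cell carcinoma antigen family, had 6.78, 7.06, 3.10, 3.48 and 7.58 in recovery mice, against 3.22, 2.96, 3.04, 3.27 and 4.43 in 3-cycles mice, so that it was high in 3 recovery mice and N2 was below G3.

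Adhesion and surface genes had 6 of 23 over 2-fold higher, 14 at an unadjusted p under 0.05 and a median of 0.47. Psca, a surface protein of stratified and transitional epithelia, had 9.88, 9.55, 4.74, 7.87 and 9.38 in recovery mice, against 4.55, 4.82, 4.70, 4.59 and 7.47 in 3-cycles mice, a difference of 3.06 (SE 0.62, adjusted p = 0.0736). Dsg3, the desmosomal cadherin of the basal layers, had 8.998, 8.33, 4.57, 6.57 and 8.67 in recovery mice, against 4.69, 4.80, 4.84, 4.59 and 7.17 in 3-cycles mice, a difference of 2.21 (SE 0.55). Dapl1, named for its likeness to a death-associated protein and expressed in stratifying epithelium, differed by 2.75 (SE 0.64). In each of these 3 genes, G3 was the highest 3-cycles mouse, and M5 lay within or just below the range of F1, F3, F5 and G2.

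The transcription factors of squamous identity differed less, at a median of 0.39, with 2 of 14 over 2-fold higher and 7 at an unadjusted p under 0.05. All 14 had a mean above that of 3-cycles mice. Trp63, the master regulator of basal cells, had 7.14, 7.02, 5.40, 6.30 and 6.80 in recovery mice, against 5.54, 5.51, 5.78, 5.57 and 6.67 in 3-cycles mice, a difference of 0.72 (SE 0.23). Trim29, a protein of basal epithelial cells, differed by 1.71 (SE 0.48), Grhl3, a regulator of barrier formation, by 1.01 (SE 0.31), and Sox2, a factor of foregut squamous epithelium, by 0.65 (SE 0.17). For all 4 of these factors, the adjusted p was between 0.264 and 0.401.

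Markers of other tissues near the distal colon overlapped between the groups. The 15 skeletal muscle genes had a median of -0.05 and 0 at an unadjusted p under 0.05, with Ckm, the muscle creatine kinase, at 7.07 to 7.50 in recovery mice, against 6.88 to 7.44 in 3-cycles mice. Of 16 posterior Hox genes, which mark position along the gut, 0 had an unadjusted p under 0.05 in either direction, with a median of -0.04. The distance of each sampled piece from the anus is not given in the sources used here. In tissue RNA, a larger share of squamous cells and more RNA per squamous cell cannot be told apart.

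Squamous genes were low in the mice after 2 cycles and in controls. Krt5 averaged 5.66 after 2 cycles and 5.70 in controls, and Krt4 4.90 and 4.78. Set against 2 cycles, recovery differed by 4.65 for Krt5 and 3 cycles by 1.16, and set against controls, by 4.62 and 1.13. The differences for 3 cycles rest on G3, at 10.91, beside 5.75 to 5.85 in the other 3-cycles mice. These comparisons share their arrays with each other and with the main contrast and are given side by side only.

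**Figure D2:**
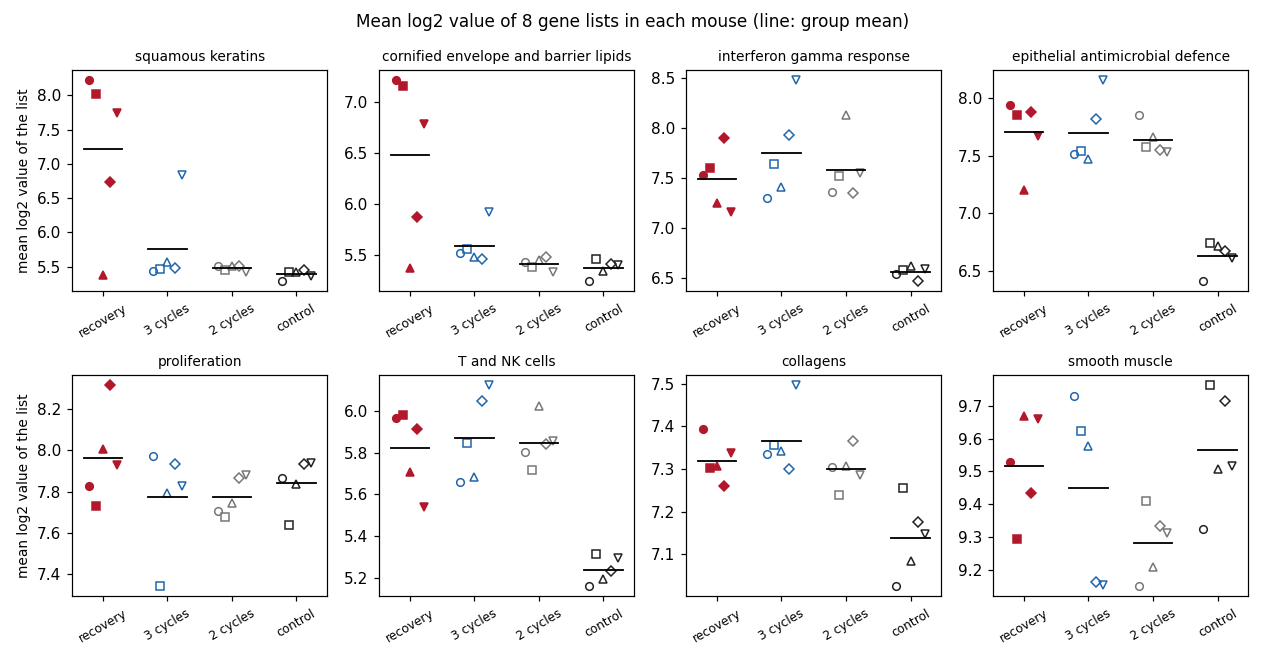
Mean log2 value (y axis) over the genes of 8 lists in each mouse, with recovery, 3 cycles, 2 cycles and control along the x axis, 1 symbol per mouse and black lines for group means. The 2 squamous lists are spread over the recovery mice, while the interferon gamma, antimicrobial, T and NK cell and collagen lists are highest in 3-cycles mouse G3.

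Outside the squamous lists, 18 genes were over 2-fold higher, and for 14 of them M5 was the lowest recovery mouse, and for 13 G3 the highest 3-cycles mouse. The lists do not hold every gene of stratified epithelium, so that a gene outside them need not be foreign to it. The 18 include Elovl4, an enzyme of barrier lipids described below, and also Lgals7, Nccrp1, Cyp4f39, Ephx3 and Crabp2. Ppbp, a chemokine precursor stored in platelets, had 11.67, 11.20, 5.12, 10.18 and 11.09 in recovery mice, against 5.94, 5.20, 5.23, 5.11 and 10.79 in 3-cycles mice, a difference of 3.40 (SE 0.91, 10.5-fold, adjusted p = 0.264). The other 7 genes of the platelet list differed by -0.21 to 0.33, and Pf4, another chemokine of platelet granules, had 6.02 to 6.51 in recovery mice against 5.92 to 6.49 in 3-cycles mice. Ltf, which encodes the iron-binding protein lactotransferrin, had 9.66, 9.63, 4.94, 8.23 and 9.09 in recovery mice, against 4.88, 5.01, 5.11, 5.72 and 9.23 in 3-cycles mice, a difference of 2.32 (SE 0.71, adjusted p = 0.363). Arg1, an arginase of activated macrophages among other cells, had 9.23, 8.82, 5.04, 7.27 and 8.85 in recovery mice, against 5.46, 5.59, 5.28, 5.07 and 8.12 in 3-cycles mice, a difference of 1.94 (SE 0.54, adjusted p = 0.3). In all 3, M5 was within or just below the range of F1, F3, F5 and G2, and G3 was within the range of the recovery mice, as for Krt5.

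Calcb, a calcitonin gene-related peptide, differed by 1.48 (SE 0.41), with G3 at 7.50 and the other 3-cycles mice at up to 5.70. Gsta4, a glutathione transferase that clears lipid aldehydes, had 10.11, 9.87, 8.56, 8.96 and 9.97 in recovery mice, against 8.59, 7.96, 8.56, 7.86 and 8.62 in 3-cycles mice, a difference of 1.18 (SE 0.25, adjusted p = 0.0993), and Gsto1, of the omega class of the same enzymes, differed by 0.90 (SE 0.17, adjusted p = 0.0736). For both, M1, M3, N2 and N3 lay above every 3-cycles mouse, G3 included, and M5 lay within the range of 3-cycles mice. Glycam1, a mucin-like ligand of high endothelial venules in lymphoid tissue, followed other mice. It had 8.496, 8.27, 7.49, 8.74 and 7.06 in recovery mice, against 6.16, 6.09, 6.16, 8.25 and 6.91 in 3-cycles mice, so that G2 was the highest 3-cycles mouse and N3 the lowest recovery mouse, at a difference of 1.30 (SE 0.42, adjusted p = 0.41).

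The promoters of 2 genes are shown because the motifs in them were found in a larger share of the squamous genes than of all genes, though in a minority of both. The windows run from 250 bases before to 50 bases after the start of a RefSeq transcript (build GRCm38.p6), and the capitals mark the AP-1 motif TGANTCA and, for Ppbp, also the TATA motif TATAAA, read on both strands. The first line is Krt13 (chr11:100120528-100120827, minus strand), of whose 2 windows the one with more AP-1 motifs is shown, and the second Ppbp (chr5:90768268-90768567, plus strand).
Krt13: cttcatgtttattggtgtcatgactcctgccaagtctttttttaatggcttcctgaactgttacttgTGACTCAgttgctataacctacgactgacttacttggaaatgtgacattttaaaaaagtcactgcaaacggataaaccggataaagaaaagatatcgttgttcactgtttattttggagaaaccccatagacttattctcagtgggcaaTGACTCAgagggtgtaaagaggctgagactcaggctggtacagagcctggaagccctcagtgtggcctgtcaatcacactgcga
Ppbp: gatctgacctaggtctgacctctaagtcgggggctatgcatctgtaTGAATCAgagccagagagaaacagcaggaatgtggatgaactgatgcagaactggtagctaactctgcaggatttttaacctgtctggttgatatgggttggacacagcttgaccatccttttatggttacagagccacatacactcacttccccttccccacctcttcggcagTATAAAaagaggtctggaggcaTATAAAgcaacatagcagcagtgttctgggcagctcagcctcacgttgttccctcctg
Krt13 holds 2 AP-1 motifs, and Ppbp holds 1 beside 2 TATA motifs. TGANTCA was in a window of 23 of the 79 squamous genes that have one (29.1%), beside 8.97% of all 27025 genes, and TATAAA in 27 of the 79 (34.2%), beside 15.7%. A match is a run of letters and not a bound site. The squamous genes include families of related genes, such as keratins, Klk and Serpinb genes, so that their windows are not independent. Ppbp is not in the squamous lists, and enrichment of the motifs was not tested.

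In a further set of genes all recovery mice, M5 included, stood apart from all 3-cycles mice. Lack of overlap was itself a rule for naming genes, and 164 probe sets (0.462%) were higher in this way. Whether that is more than chance would give was not tested. Ly6g6c, a small surface protein of the Ly6 family, had 10.13, 10.23, 8.74, 8.98 and 10.20 in recovery mice, against 8.73, 8.08, 7.61, 7.77 and 6.95 in 3-cycles mice. M5, at the lowest of the recovery mice, was just above the highest 3-cycles mouse, F1, and G3 was the lowest of all 10. Ly6g6c is counted in the squamous adhesion list, but unlike Krt5 it was not high in G3. The difference was 1.83 (SE 0.31, 95% interval 1.19 to 2.47, 3.55-fold) at an adjusted p of 0.0593. Elovl4, an enzyme that makes the very long fatty acids of barrier lipids, had 7.17, 6.71, 5.67, 5.63 and 6.57 in recovery mice, against 5.52, 5.10, 5.32, 4.995 and 5.26 in 3-cycles mice, a difference of 1.11 (SE 0.20, adjusted p = 0.0593). These 2 genes and Mptx1 were the 3 that were both over 2-fold higher and without overlap.

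Mptx1, the mucosal pentraxin of the colon, had 9.999, 9.98, 10.55, 10.05 and 10.93 in recovery mice, against 5.68, 9.22, 9.85, 9.06 and 8.02 in 3-cycles mice. The recovery mice lay close together and the 3-cycles mice were spread, with F1 far below the rest. The difference was 1.94 (SE 0.69, 3.82-fold, adjusted p = 0.501), and 1.26 without F1. The mean was 9.94 after 2 cycles and 11.44 in controls, and all 5 recovery mice lay between these means. Tgm3, a transglutaminase, was also lowest in F1, at 7.59, and its other values overlapped, at 9.78 to 11.62 in recovery mice against 10.40 to 11.43 in the remaining 3-cycles mice.

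Among the other genes of smallest unadjusted p without overlap, those higher after recovery differed by less than 2-fold. Tmem45a, a membrane protein of keratinizing epithelium, had 7.41, 7.12, 6.36, 6.54 and 7.03 in recovery mice, against 6.24, 5.87, 6.16, 6.05 and 6.34 in 3-cycles mice, a difference of 0.76 (SE 0.15, adjusted p = 0.0736). Prrg4, a membrane protein with a vitamin K-dependent domain, differed by 0.72 (SE 0.15, adjusted p = 0.0792). Megf9, with EGF-like repeats, had 7.36 to 7.62 in recovery mice against 6.94 to 7.27 in 3-cycles mice, and Topors, a ubiquitin and SUMO ligase, 6.86 to 7.08 against 6.60 to 6.81, so that both had narrow ranges and small differences, of 0.46 and 0.30. Gsdmc, Grip1, Phkg2 and Bex3 differed by 0.42, 0.35, 0.34 and 0.30, at adjusted p of 0.0792 to 0.141.

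**Figure D3:**
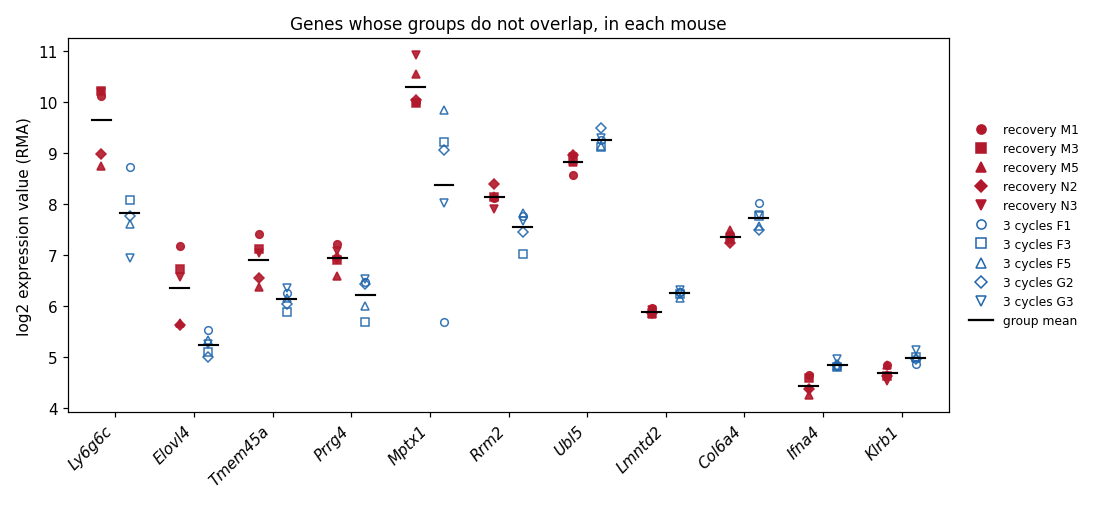
Log2 expression value (y axis) of 11 genes (x axis) in each mouse, with recovery as filled red symbols left of 3 cycles as open blue symbols, and black lines for the group means. In the 6 genes on the left all recovery mice lie above all 3-cycles mice, and in the 5 on the right all lie below.

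Genes without overlap and lower after recovery had small differences. Ubl5, a ubiquitin-like protein of splicing and of the mitochondrial stress response, had 8.57, 8.86, 8.82, 8.96 and 8.92 in recovery mice, against 9.25, 9.13, 9.14, 9.49 and 9.30 in 3-cycles mice, a difference of -0.43 (SE 0.09, adjusted p = 0.0736). Lmntd2, with a lamin tail domain, had 5.83 to 5.96 in recovery mice against 6.16 to 6.31 in 3-cycles mice, a difference of -0.36 (SE 0.07, adjusted p = 0.0736). Col6a4, a collagen VI chain, had 7.39, 7.32, 7.49, 7.24 and 7.35 in recovery mice, against 8.02, 7.77, 7.57, 7.50 and 7.78 in 3-cycles mice, a difference of -0.37 (SE 0.09, adjusted p = 0.218), and averaged 7.55 after 2 cycles and 6.79 in controls. The remaining 7 (Ifna4, Obox7, Olfr1163, Klrb1, Hfm1, Vmn1r212 and Cep295nl) differed by -0.41 to -0.28, and 5 of them, Ifna4, Obox7, Olfr1163, Hfm1 and Vmn1r212, had values under 5 in all 10 mice, in the lower part of the range of the arrays.

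The 2 genes over 2-fold lower after recovery, neither of which passed the test, both belong to the circadian clock. In this loop Arntl (Bmal1) and Clock activate genes with E-boxes, among them Nr1d1, Dbp and Ciart, and Nr1d1 (REV-ERB alpha) and Ciart in turn repress Arntl or its activity. The promoter windows of Ciart (chr3:95882179-95882478, minus strand) and Arntl (chr7:113207261-113207560, plus strand) are printed because the means of these genes lay on opposite sides of those of 3-cycles mice, with capitals for the E-box CACGTG in Ciart and for TAGGTCA, the core that REV-ERB and ROR receptors bind, in Arntl, read on both strands. Arntl has 2 windows, of which the one that holds the motif is shown.
Ciart: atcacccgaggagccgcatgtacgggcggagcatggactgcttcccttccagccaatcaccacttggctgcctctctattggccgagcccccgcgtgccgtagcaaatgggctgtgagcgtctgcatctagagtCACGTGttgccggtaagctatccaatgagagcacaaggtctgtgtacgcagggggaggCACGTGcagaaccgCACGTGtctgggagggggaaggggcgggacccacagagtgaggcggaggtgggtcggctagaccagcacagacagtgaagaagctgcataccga
Arntl: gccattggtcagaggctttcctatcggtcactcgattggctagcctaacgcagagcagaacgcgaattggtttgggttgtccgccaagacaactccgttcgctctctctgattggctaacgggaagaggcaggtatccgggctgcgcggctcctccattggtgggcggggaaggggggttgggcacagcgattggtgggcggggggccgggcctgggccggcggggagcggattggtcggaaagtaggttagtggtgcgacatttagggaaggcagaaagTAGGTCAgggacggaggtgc
Ciart holds 3 E-boxes, and CACGTG was in a window of 5 of the 14 clock genes that have one (Bhlhe41, Ciart, Cry1, Per1 and Tef), beside 8.09% of all genes. TAGGTCA was found for 2 of the 14, Arntl and Nfil3, beside 2.97% of all genes.

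Ciart had 5.27, 5.89, 4.81, 5.42 and 6.38 in recovery mice, against 7.30, 7.18, 6.32, 6.03 and 6.45 in 3-cycles mice. The ranges overlapped through N3, the highest recovery mouse, which was above F5 and G2. The difference was -1.10 (SE 0.44, 95% interval -2.01 to -0.19, 2.14-fold lower, unadjusted p = 0.0198, adjusted p = 0.587). Nr1d1 had 8.92, 9.02, 9.12, 10.10 and 10.86 in recovery mice, against 10.73, 11.28, 9.55, 10.78 and 10.76 in 3-cycles mice, with N2 and N3 within the range of the 3-cycles mice, and a difference of -1.02 (SE 0.52, 95% interval -2.09 to 0.05, adjusted p = 0.716). Dbp, an output factor of the clock, had 7.60, 7.77, 7.32, 7.54 and 8.40 in recovery mice, against 8.58, 9.16, 7.82, 8.43 and 8.42 in 3-cycles mice, a difference of -0.76 (SE 0.41, adjusted p = 0.726).

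Arntl stood on the other side. It had 7.29, 7.63, 8.25, 7.83 and 7.32 in recovery mice, against 6.44, 6.63, 7.36, 7.22 and 7.002 in 3-cycles mice, so that the groups overlapped only by M1 and N3, which lay just below F5. The difference was 0.73 (SE 0.30, 95% interval 0.11 to 1.35, unadjusted p = 0.0226, adjusted p = 0.611). Over the 16 clock genes, 11 were below and 5 above 0, with a median of -0.20, and at an unadjusted p under 0.05 there were 2 lower, Ciart and Tef (-0.47), and 2 higher, Arntl and Clock (0.18), of which Tef and Clock were picked for naming after their values were seen. Ciart also varied within the other groups, at 5.29 to 7.38 after 2 cycles and 5.32 to 7.92 in controls. The hour at which each mouse was killed is not given in the sources used here.

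**Figure D4:**
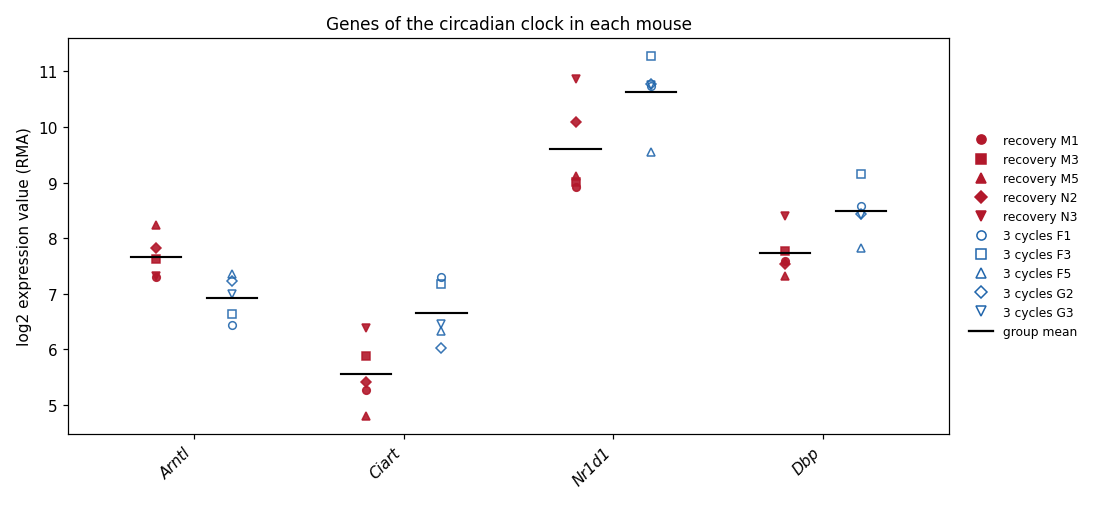
Log2 expression value (y axis) of 4 clock genes (x axis) in each mouse, with recovery as filled red symbols left of 3 cycles as open blue symbols, and black lines for the group means. Arntl is higher in mean after recovery and Ciart, Nr1d1 and Dbp are lower, and the groups overlap in each.

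Interferon response genes had mostly lower means after recovery. Of 26 interferon gamma response genes, 25 were below 0, with a median of -0.25 and 0 at an unadjusted p under 0.05. In 24 of the 26, G3 was the highest 3-cycles mouse, and without G3 the median was -0.09. Cxcl9, an interferon gamma-induced chemokine for T cells, had 8.10, 8.81, 8.25, 9.50 and 7.96 in recovery mice, against 8.36, 8.45, 8.16, 9.60 and 10.58 in 3-cycles mice, a difference of -0.51 (SE 0.49, 95% interval -1.52 to 0.50). Cxcl10, its relative, differed by -0.51 (SE 0.50), and G3 at 8.49 stood apart from the other 3-cycles mice, at up to 6.76. Ido1, which degrades tryptophan, differed by -0.41 (SE 0.48). Against controls, all of the low ATP6 array set, Cxcl9 differed by 2.88 after recovery and by 3.39 after 3 cycles, beside a control mean of 5.64.

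Of 19 type I interferon response genes, 18 were below 0, with a median of -0.15 and 1 at an unadjusted p under 0.05 (Oas2, -0.48, SE 0.22). The antimicrobial list of 35 genes held members on both sides, with a median of -0.16, 4 higher and 4 lower at an unadjusted p under 0.05. That median was -0.04 without G3 and -0.06 without M5. Reg3b and Reg3g, antimicrobial lectins, differed by -0.21 (95% interval -1.84 to 1.41) and -0.26 (95% interval -1.75 to 1.24), intervals too wide to bound the difference within 2-fold. The control means were 4.61 and 4.36, and Reg3b was at 8.23 to 10.39 in recovery mice and 8.52 to 10.54 in 3-cycles mice. Retnlb, a goblet cell protein active against bacteria, differed by 0.56 (95% interval -0.86 to 1.98), and was lowest in M3 among recovery mice and in G2 among 3-cycles mice.

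Defb1, a beta-defensin of epithelia, differed by 0.84 (SE 0.22), with 6.30, 5.59, 4.37, 4.85 and 5.84 in recovery mice, against 4.33, 4.54, 4.27, 4.54 and 5.08 in 3-cycles mice, with the same order among the high mice as Krt5. Lcn2, which binds bacterial siderophores, and Lrg1, an acute-phase glycoprotein, differed by -0.76 (SE 0.48) and -0.78 (SE 0.47). For both, G3 was the highest 3-cycles mouse, at 9.58 and 9.57, and recovery mice reached at most 7.19 and 7.54. Saa1, an acute-phase protein also made by the colon, had 6.22, 6.27, 5.72, 6.28 and 5.57 in recovery mice, against 6.31, 7.07, 6.10, 7.18 and 6.30 in 3-cycles mice, a difference of -0.58 (SE 0.22, adjusted p = 0.566), and here F3 and G2, not G3, were the high 3-cycles mice, near the control mean of 7.03. The 18 neutrophil genes had a median of 0.02, and G3 was the highest 3-cycles mouse for 17 of them.

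**Figure D5:**
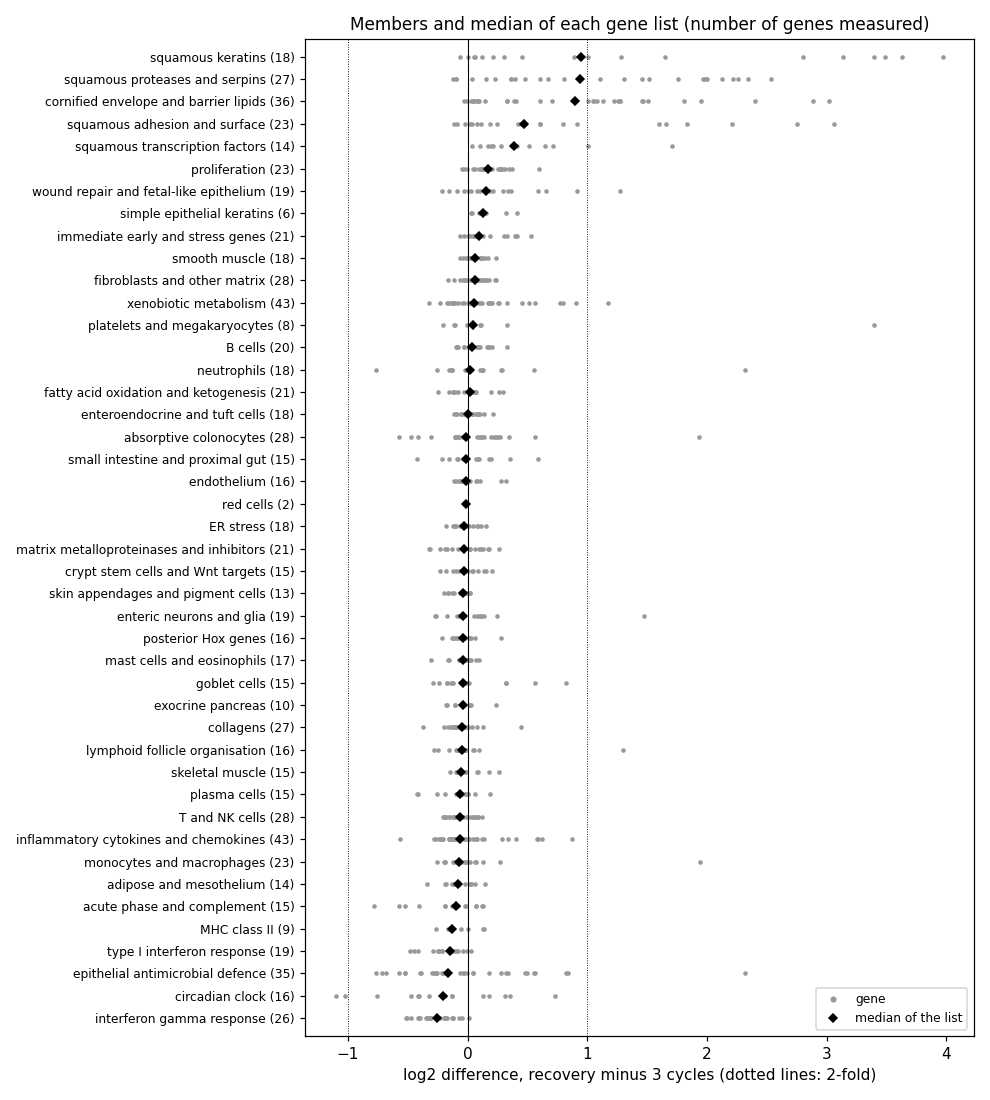
Log2 difference between recovery and 3 cycles (x axis, dotted lines at 2-fold) of each member (grey points) and of the median (black diamonds) of the 44 gene lists, with the number of genes measured in parentheses. The 5 squamous lists have the highest medians, at 0.39 to 0.95, and the interferon gamma list the lowest, at -0.25.

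Genes of cell division had small differences mostly of 1 sign. Of 23 proliferation genes, 20 were above 0, with a median of 0.17, which was 0.07 without N2, and 3 had an unadjusted p under 0.05, all higher. Rrm2, a subunit of the enzyme that makes deoxynucleotides, had 8.11, 8.14, 8.15, 8.40 and 7.90 in recovery mice, against 7.76, 7.01, 7.82, 7.45 and 7.67 in 3-cycles mice, without overlap, at a difference of 0.60 (SE 0.16, adjusted p = 0.289). Pcna, the sliding clamp of DNA replication, had 9.74, 9.78, 9.78, 9.88 and 9.53 in recovery mice, against 9.37, 9.16, 9.59, 9.37 and 9.39 in 3-cycles mice, a difference of 0.37 (SE 0.10, adjusted p = 0.264). N2 was the highest recovery mouse for both and F3 the lowest 3-cycles mouse. In the repair list of 19 genes, the median was 0.15, with 5 at an unadjusted p under 0.05. Anxa1, an annexin that limits inflammation and that is also in the squamous adhesion list, differed by 0.92 (SE 0.23), and Hbegf, an EGF receptor ligand, by 0.66 (SE 0.17). For Anxa1 the low recovery mouse was M5, at 9.06, and the high 3-cycles mouse G3, at 9.80.

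Genes of the native colonic epithelium lay on both sides of 0. Of 28 absorptive colonocyte genes 13 were above and 15 below 0, with a median of -0.01. The interval lay within 2-fold for 21 of the 28, beside 19682 of all 19938 genes. The 15 goblet cell genes had a median of -0.04 and the 15 crypt stem cell genes of -0.03, and neither list had a gene at an unadjusted p under 0.05. The 6 keratins of simple epithelium were all above 0, with a median of 0.13 and 2 at an unadjusted p under 0.05. The mucin Muc2 differed by 0.00 (95% interval -0.28 to 0.28) and the brush border protein Vil1 by -0.07 (95% interval -0.25 to 0.11), both bounded within 2-fold.

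Matrix and muscle genes, followed because repeated DSS is used as a model of fibrosis, also had list medians near 0. Of 27 collagens 20 were below 0, with a median of -0.05, and all 27 intervals lay within 2-fold. Over all 19938 genes, 10741 were below 0 and 19682 had such an interval, so that the collagens did not stand out in this. Of 21 matrix metalloproteinases and inhibitors, 18 had such an interval, with a median of -0.03. Col1a1, the main fibrillar collagen, had 9.63, 9.41, 9.43, 9.43 and 9.52 in recovery mice, against 9.68, 9.54, 9.61, 9.65 and 9.90 in 3-cycles mice, a difference of -0.19 (95% interval -0.42 to 0.04, adjusted p = 0.767), and G3 was the highest of all. Against controls, Col1a1 differed by 0.38 after recovery and 0.57 after 3 cycles, which cannot be told apart from the array set. Col3a1 differed by -0.11 (95% interval -0.32 to 0.10), Vim, the filament of mesenchymal cells, by 0.08 (95% interval -0.21 to 0.36), Acta2, the actin of smooth muscle and myofibroblasts, by 0.12 (95% interval -0.07 to 0.31), and Tnc, the matrix protein tenascin, by 0.03 (95% interval -0.33 to 0.39). For each of these 5 genes the interval excluded a 2-fold difference.

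Lymphocyte gene lists had medians near 0. Cd79a, part of the B cell receptor, had 8.12, 7.30, 6.17, 7.94 and 6.07 in recovery mice, against 6.56, 6.75, 6.79, 8.02 and 7.08 in 3-cycles mice, a difference of 0.08 (95% interval -0.78 to 0.94). The 20 B cell genes had a median of 0.04, the 15 plasma cell genes of -0.06, the 28 T and NK cell genes of -0.06 and the 9 MHC class II genes of -0.13, and of these 4 lists only the plasma cell list had genes at an unadjusted p under 0.05, 1 higher and 1 lower. M5 and N3 were the recovery mice low in Cd79a, and N3 was among the mice high in squamous genes.

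The spread within each group was summarised over all genes. The median SD over genes was 0.135 in recovery mice and 0.137 in 3-cycles mice, so that the groups varied to a like extent over the array. An SD over 1 was found for 73 genes in recovery mice, 47 of them of the squamous lists, and for 46 genes in 3-cycles mice, 14 of them of these lists, so that most were squamous in recovery mice and most were not in 3-cycles mice. In 3-cycles mice, genes of widest spread outside the squamous lists included Mptx1 and Tgm3, low in F1, and Cyp2c65, an epithelial P450 enzyme that was low in G2 and G3 at 6.23 and 6.63, beside at least 8.74 in the other 3-cycles mice.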

How the data were processed

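Colonic RNA was hybridised to Affymetrix Mouse Gene 1.0 ST arrays, 1 array per mouse. The deposited values are log2 expression values that the authors computed with RMA in R 2.12.2, per the submitters' processing notes. RMA makes the probe intensities of the arrays it is run on alike in distribution, so that levels are relative to the other genes of an array, and which arrays were run together is not given in the sources used here. Arrays were assigned to groups by the label of the colitis group, and no array or column was left out. A linear model with 1 mean per group was fitted to all 29 arrays with limma 3.58.1 in R 4.3.3, and the fit was tested on simulated data. The p-values were adjusted over the 35511 probe sets by the Benjamini-Hochberg method, and a probe set was called at an adjusted p under 0.05 and a difference over 2-fold. A gene is represented by the probe set with its symbol alone, and by the one of highest mean over all arrays where there are several. Probe sets with 1 symbol numbered 21789, with several 1621 and with none 12101. The genes named are the 10 of smallest p in each direction whose groups do not overlap, up to 4 members of each list by size of difference, the genes that the study names or stained for these groups, and those of widest spread within a group. The members and lists were chosen with earlier results of these data known. The alternatives were other samples in the fit, a covariate or block for the array sets and label letters, array weights, another prior, only probe sets with 1 symbol or with a mean above the median of all values (not dim), other scalings, and leaving out each mouse. The number of arrays limits the precision.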

Additional observations from a re-analysis of the deposited data

Results flagged for a closer look

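Within each group of 5 mice, a value was set apart where the gap between the highest or lowest mouse and its nearest neighbour took up more of the range than Dixon's 95% limit allows. Of 164 groups of values of 82 genes, 25 were set apart. The rule sets apart about 1 in 20 groups by chance where genes are not chosen on their values, but many of these genes were chosen for wide spread or a large difference, so that the count is a description and cannot be read against that rate. In 21 of the 25 the mouse was G3 of the 3-cycles group, at the high end, so these values share 1 array and are not independent of each other.

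For keratins, G3 stood at 10.91 for Krt5, 7.85 for Krt6a, 8.99 for Krt6b, 9.08 for Krt13 and 9.85 for Krt14, where the other 3-cycles mice reached at most 6.58 for any of these genes. For other squamous genes G3 stood at 8.67 for Dapl1, 7.47 for Psca, 7.47 for Cnfn, 6.86 for Tmprss11b, 8.27 for Tmprss11g, 4.43 for Serpinb3a, 7.17 for Dsg3, 8.16 for Trim29 and 6.67 for Trp63. Outside the squamous lists G3 was set apart for Ppbp at 10.79, Ltf at 9.23, Arg1 at 8.12, Calcb at 7.50, Gsto1 at 9.99, Ifna4 at 4.95 and Cxcl10 at 8.49.

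Recovery mouse M5 was set apart at the low end for Ppbp, at 5.12, and recovery mouse M3 for Retnlb, at 8.59. The 3-cycles mouse F1 was set apart at the low end for Tgm3, at 7.59, and at the high end for Megf9, at 7.27, which is still below every recovery mouse.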

How the results depend on the processing

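No probe set was called in the fit of these 10 arrays alone (smallest adjusted p by limma 0.381), of the arrays high for ATP6 (0.0689), with the ATP6 sets as a covariate (0.0716), with a trended and robust prior (0.0709) or among the 17682 probe sets left without dim ones (0.0548), beside 0.0593 as reported, with 998 higher and 1554 lower at an unadjusted p under 0.05. Calls appeared with the label letter as a random block (24 higher, 1 lower, 39 at an adjusted p under 0.05 whatever the fold; the estimated correlation was -0.0683, and a negative value makes these errors smaller), array weights (10 higher, 19), only probe sets with 1 symbol (18 higher, 29), quantile normalization once more (4 higher, 6) and centring (4 higher, 5). Leaving out each mouse gave 0 to 76 higher, 0 to 3 lower and 0 to 138 at an adjusted p under 0.05, with calls only without M5, G3, N2 or F1. The cause was not tested.

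Without dim probe sets, fewer were tested, and 537 were lower at an unadjusted p under 0.05, 26 and 2 over 2-fold higher and lower, 138 lower without overlap, and 18 squamous genes over 2-fold higher. With 1 symbol only, 771 were lower at an unadjusted p under 0.05, 2 over 2-fold lower and 160 lower without overlap. With a mouse left out, groups of 4 overlap less, and 247 to 460 probe sets were higher and 494 to 737 lower without overlap, with 6 to 19 over 2-fold lower and 38 to 55 squamous genes over 2-fold higher.

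Of 82 genes, 76 kept their direction under all 10 settings and 10 omissions. The others were near 0 or spread widely. With mice left out in turn, Reg3b ran between -0.50 without M1 and 0.062 without F1, Tnc between -0.086 without G2 and 0.14 without M3, Cd79a between -0.17 without M1 and 0.34 without N3, Tgm3 between -0.44 without F1 and 0.52 without F3, Vil1 between -0.11 without G3 and 0.0080 without M1, and Muc2 between -0.039 without G2 and 0.057 without M3. Cd79a was -0.015 with array weights, and Muc2 -0.0052 with the letter block and -0.031 with quantile normalization. No paired analysis was possible because each mouse belongs to 1 group and the labels pair none. With 5 arrays a group, the interval reached beyond 2-fold for most squamous genes.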
